A study of Mus musculus with 3 samples.

Results

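Peripheral blood (PB) leukocytes express part of the machinery that forms and dissolves clots, and 9 genes of that machinery and of the provisional matrix were followed here across blood cell classes and leukemia progression. They were F13a1, F5, F7, F10, Plaur, Serpinb2, Thbs1, Fn1 and Vcan, 9 of the 32285 features in the count tables. The genes were chosen by name, with their levels in these same libraries already known. In particular, the lower level of Serpinb2 in non-classical monocytes of leukemic mice belonged to the choice, so every value of this contrast is given as a description and not as evidence. Droplet-based scRNA-Seq (10x 3′, version 3 chemistry) had been performed on PB of wild-type (WT) Balb/C mice. The naive library came from mice without leukemia, and the D11 and D14 libraries came from mice engrafted with BBC2 cells and bled 11 and 14 days later. BBC2 is a mouse line of FGFR1-driven stem cell leukemia/lymphoma (SCLL), so both leukemic time points describe a single transplanted line in an immunocompetent host. Engraftment used female hosts 6–8 weeks old, and the age of the naive mice and the number of mice behind each library were not given in the sources used here. All 3 samples had their red cells lysed and their dead cells removed. Each condition was 1 library, so no difference between conditions could be tested, and every interval given is a 95% interval for counting error alone.

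Clotting factors act in a cascade in which factor VII (F7), bound to tissue factor, activates factor X (F10). Activated factor X, with factor V (F5) as its cofactor, generates thrombin, and the transglutaminase factor XIII, whose A subunit is F13a1, cross-links the fibrin that thrombin makes. One route of fibrinolysis starts from urokinase, which is held at the cell surface by its receptor (Plaur) and is blocked by plasminogen activator inhibitor 2 (Serpinb2). Fibronectin (Fn1), the proteoglycan versican (Vcan) and thrombospondin 1 (Thbs1) are matrix or matrix-bound proteins that blood and tissue cells lay down at sites of injury. Classical monocytes (cMono, Ly6c-high in the mouse) are recruited to inflamed tissue, whereas non-classical monocytes (ncMono) patrol the vessel wall and arise in part from cMono.

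The promoters of 3 members whose classes and time courses differed are shown, to place their nearest sequence context beside the values. Each runs from 250 bases before to 50 bases after the RefSeq transcription start on GRCm38.p6, and the capitals mark matches, on either strand, to the AP-1 motif TGANTCA, the PU.1-type motif GAGGAA or the TATA motif TATAAA. Both the motifs and the genes were picked with the matches in view. Serpinb2 lies at chr1:107511173-107511472 (plus strand), Plaur at chr7:24462233-24462532 (plus strand) and F13a1 at chr13:37050195-37050494 (minus strand).
Serpinb2: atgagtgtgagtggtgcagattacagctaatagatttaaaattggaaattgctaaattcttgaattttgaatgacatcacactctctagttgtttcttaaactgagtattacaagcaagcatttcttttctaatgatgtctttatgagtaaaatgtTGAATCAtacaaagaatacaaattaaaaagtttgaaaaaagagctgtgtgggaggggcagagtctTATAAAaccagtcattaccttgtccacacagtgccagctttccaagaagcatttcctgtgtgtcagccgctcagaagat
Plaur: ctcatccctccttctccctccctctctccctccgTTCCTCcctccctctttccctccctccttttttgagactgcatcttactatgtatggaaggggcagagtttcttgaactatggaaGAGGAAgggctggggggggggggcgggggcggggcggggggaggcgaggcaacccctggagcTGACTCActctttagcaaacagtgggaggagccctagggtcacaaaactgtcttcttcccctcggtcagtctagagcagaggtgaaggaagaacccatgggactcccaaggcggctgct
F13a1: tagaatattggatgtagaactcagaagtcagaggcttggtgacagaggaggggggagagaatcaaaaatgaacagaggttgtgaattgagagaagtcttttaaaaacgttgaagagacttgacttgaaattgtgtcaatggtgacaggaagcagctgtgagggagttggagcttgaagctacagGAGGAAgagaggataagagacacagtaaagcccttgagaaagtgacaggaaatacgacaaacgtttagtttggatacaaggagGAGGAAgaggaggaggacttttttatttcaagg
Serpinb2 held the AP-1 motif at position -94 and the TATA motif at -29, Plaur held GAGGAA on the reverse strand at -216, GAGGAA at -131 and the AP-1 motif at -69, and F13a1 held GAGGAA at -66 and 18. Of 32851 mouse promoter windows of the same length, 28.3% held GAGGAA, 7.81% held TGANTCA and 13.6% held TATAAA, whatever the gene. In F7 a single GAGGAA match was found, and none of the motifs was found in F5, F10 or Vcan. Thbs1 and Fn1 were not analysed in this way.

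All 9 members were found in the mouse annotation (GRCm38, GENCODE vM21). Serpinb2 (chr1:107511423-107535478), F5 (chr1:164151838-164220277) and Fn1 (chr1:71585520-71653200) lie on chromosome 1, F13a1 (chr13:36867178-37050244) and Vcan (chr13:89655312-89742509) on chromosome 13, Plaur at chr7:24462484-24475968 and Thbs1 at chr2:118111876-118127133. F7 (chr8:13026034-13035809) and F10 (chr8:13037308-13056676) are neighbours on chromosome 8, 1498 bases apart and on the same strand.

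After filtering, 3811 (naive), 4567 (D11) and 4414 (D14) cells were kept. The deposited barcodes held 30362408 to 65861863 UMIs (unique molecular identifiers, each counting 1 captured transcript) per library, and the kept cells held 26422110 to 51192755. Cells were placed in classes by gates of 8 to 10 marker genes, none of which was a member, and values are CPM (UMIs of the gene per 1000000 UMIs of the class). The ncMono gate held 138, 210 and 651 cells in naive, D11 and D14, the cMono gate 131, 212 and 103, and the neutrophil gate 1321, 1600 and 1283. Every marker of each of these 3 classes was found in its own gate in every library. Hemoglobin took 11.2% to 55.9% of the UMIs of the deposited barcodes, and 26 to 32 barcodes were shared by 2 libraries. Median UMIs per cell differed between libraries in cMono (12760, 13470 and 21245) more than in ncMono (8017, 8090 and 9402), so shares of cells with a UMI are also given after thinning each cell to 1000 UMIs. Cells with under 1000 UMIs were left out of those thinned shares.

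**Figure D1:**
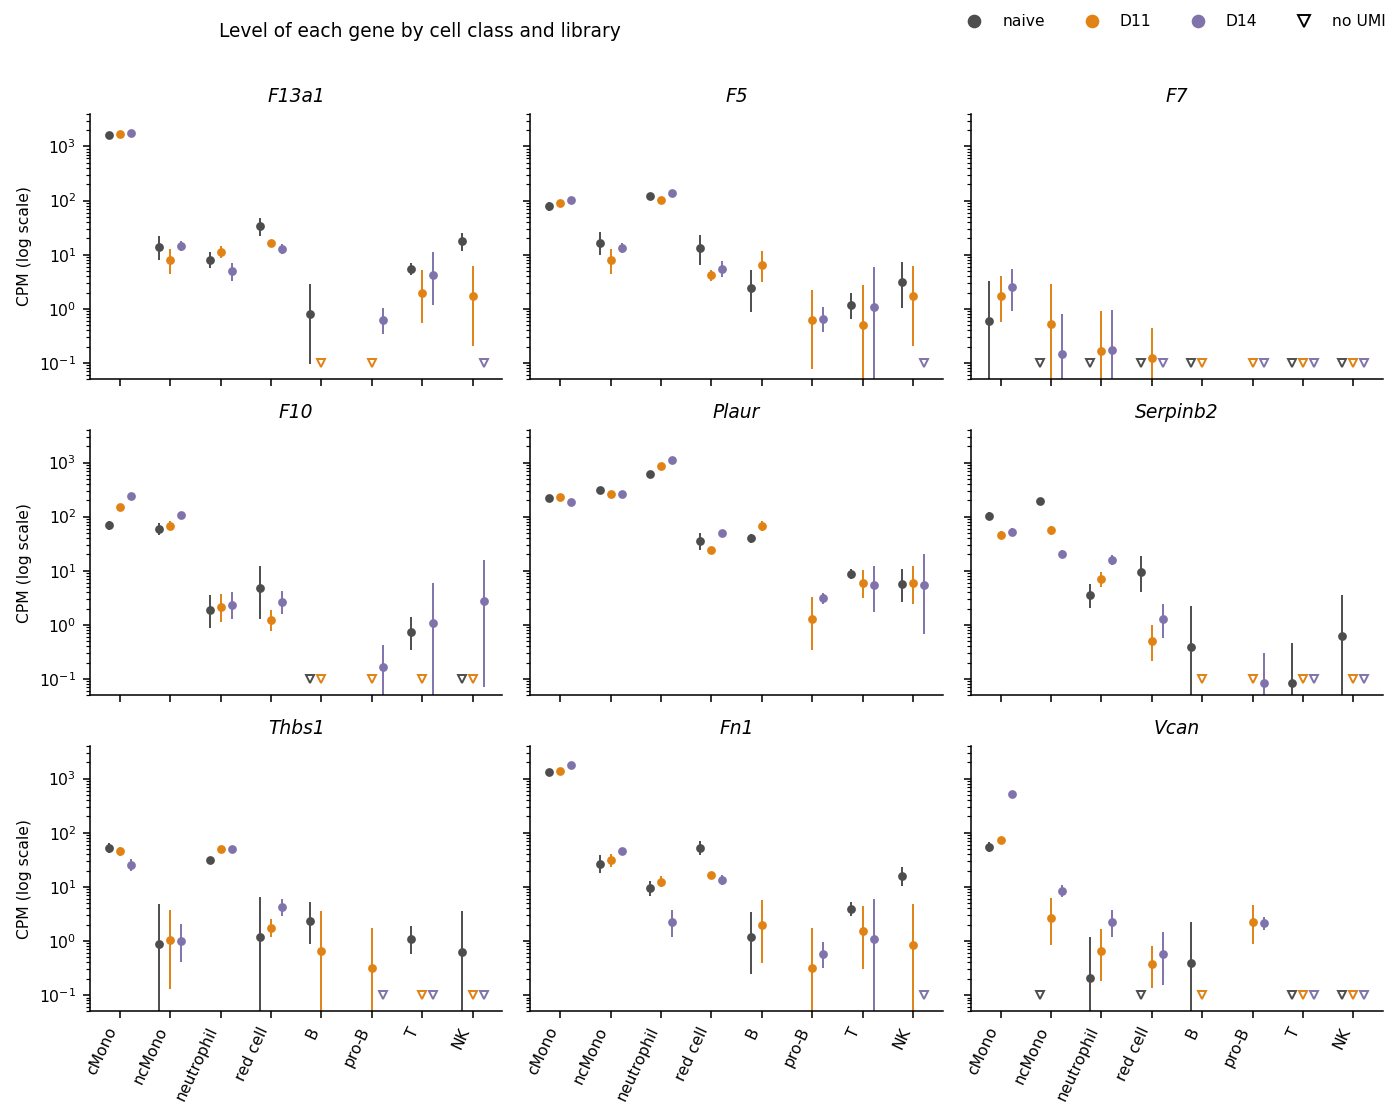
Level of each of the 9 genes (CPM, log axis) by cell class and library, drawn for classes of at least 50 cells. Points are class sums, bars are 95% Poisson intervals cut at the bottom of the axis, and open triangles mark sums with no UMI. Serpinb2 in ncMono steps down from 190.4 to 20.3 CPM, Vcan in cMono steps up from 54.6 to 529 CPM, and F7 stays at 2.51 CPM or below.

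Serpinb2, the urokinase inhibitor, was lower in ncMono of both leukemic libraries. Its level was 190.4 CPM in naive (166 to 217), 56.0 CPM at D11 (45.9 to 67.6) and 20.3 CPM at D14 (17.1 to 23.9), on 219, 107 and 140 UMIs. None of these intervals overlapped, and the D14 level was 9.38-fold below naive (7.55 to 11.7). As a log2 ratio to naive, the difference was -1.77 at D11 and -3.23 at D14, with a further -1.46 from D11 to D14 (-1.84 to -1.09). The share of ncMono with at least 1 Serpinb2 UMI was 60.9% in naive, 32.9% at D11 and 13.4% at D14. After thinning, these shares were 15.6%, 5.62% and 1.75%, so they keep the order of the CPM. T cells, which should lack the gene, gave 1 of 1306 cells in naive, 0 of 268 at D11 and 0 of 110 at D14, at median depths of 9042.5, 6938.5 and 7520 UMIs. By a floor of 3 counts, those zeros allow shares of cells with a UMI of up to 1.12% and 2.73%.

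The difference was spread over single ncMono and not carried by a few cells. In naive, 13 of 138 ncMono carried 5 or more Serpinb2 UMIs and 54 carried none. At D14, 2 of 651 carried 5 or more and 564 carried none. The 2 highest cells held 20 of the 219 naive UMIs and 12 of the 140 UMIs at D14. Serpinb2 was also read in ncMono split by how many of the 8 cMono markers a cell showed, since cells with 2 or more made up 77.5% of naive and 56.8% of D14 ncMono. Within the cells showing 2 or more cMono markers, the level was 198 CPM in naive, 60.1 CPM at D11 and 26.6 CPM at D14. Among the 24, 29 and 204 cells with a single cMono marker it was 152, 32.8 and 9.06 CPM. Among the 7, 20 and 77 cells with none it was 87.5, 40.1 and 5.87 CPM. With 2 or more markers the intervals were separate (172 to 228, 48.6 to 73.3 and 22.1 to 31.8). With a single marker, naive (95.1 to 229.8) lay above both leukemic libraries, while D11 (13.2 to 67.6) and D14 (5.28 to 14.5) overlapped. The cells with none held 2, 4 and 3 Serpinb2 UMIs, and their libraries could not be ordered. Summed cMono markers in ncMono stood at 1246, 1064 and 542 CPM, whereas the ncMono markers stood at 5732, 6238 and 6144 CPM. Pro-B markers, which the leukemic libraries hold in a class of their own, summed to 13.9, 18.3 and 149 CPM in ncMono, 54.6, 69.5 and 104 CPM in cMono and 15.7, 32.7 and 189 CPM in neutrophils, and their part in the values was not tested. Of 12 tissue macrophage markers, 5 had any UMI in ncMono at D14 (21.7 CPM in all, against 2.61 CPM in naive), and Timd4, Cd163, Vsig4, Clec4f, C1qa, C1qb and C1qc were at 0.

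In cMono, Serpinb2 was also lower in the leukemic libraries, but it did not step down further from D11 to D14. The level was 104 CPM in naive (89.0 to 120.4), 46.5 CPM at D11 (38.9 to 55.1) and 52.2 CPM at D14 (43.5 to 62.2). Both leukemic values lay below the naive interval and overlapped each other, and D14 was 1.99-fold below naive (1.57 to 2.52). Among the gated classes, the one with the highest Serpinb2 differed between naive and D14. In naive blood ncMono stood 1.83-fold above cMono (1.50 to 2.25), at D11 the classes could not be separated at this depth (1.20-fold, 0.925 to 1.57), and at D14 ncMono stood 2.57-fold below cMono (2.01 to 3.30). The naive log2 ratio of ncMono to cMono was 0.87 (0.58 to 1.17). With Leiden clusters in place of gates it was 0.34, outside that interval. The share of cMono with a Serpinb2 UMI was 53.4%, 37.3% and 67.0%, but after thinning to equal depth it was 9.29%, 4.44% and 5.38%, which follows the CPM.

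Precursor and dividing-cell transcripts (Mpo, Elane, Ctsg, Ms4a3, Mki67, Top2a) also differed between the libraries in cMono. Their summed level in cMono was 29.1 CPM in naive, 50.3 CPM at D11 and 773 CPM at D14, and 22 of 131, 53 of 212 and 65 of 103 cells had at least 1 such UMI. With those cells left out, an alternative added after the data were seen, the Serpinb2 log2 ratio of D14 to naive in cMono was -0.30 in place of -0.99, and in ncMono it was -3.27 in place of -3.23. The same alternative gave 1.74 for F10, 3.24 for Vcan, 0.23 for Fn1 and -1.01 for Thbs1 in cMono. It left 109 cMono in naive and 38 at D14, so its cMono values, given without intervals, rest on few D14 cells.

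**Figure D2:**
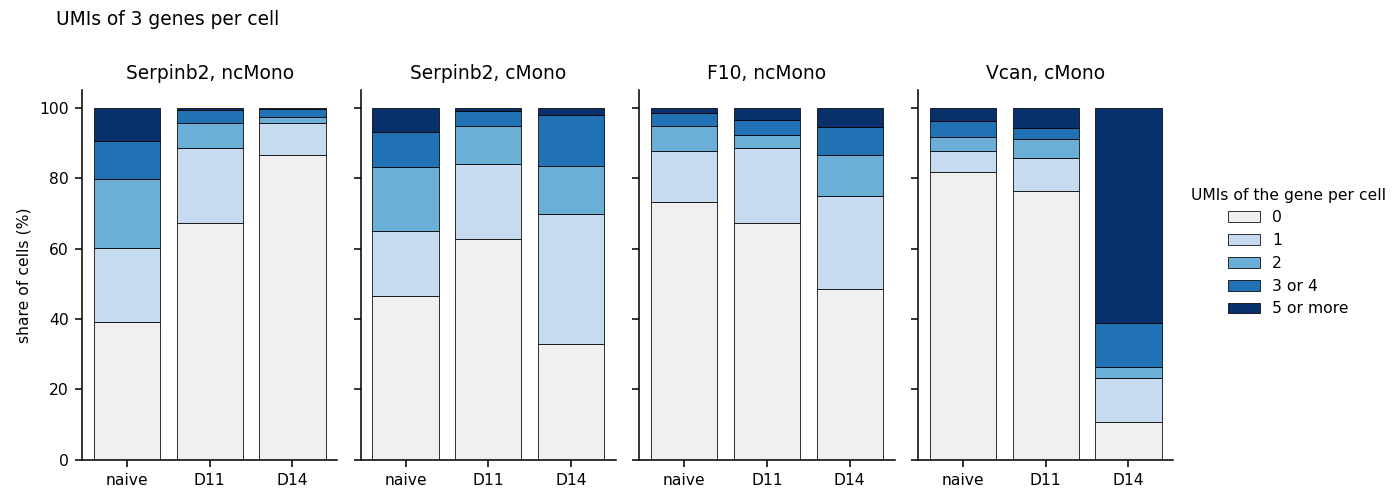
Share of cells (%, y axis) with 0, 1, 2, 3 or 4, and 5 or more UMIs of a gene in each library, for Serpinb2 in ncMono and in cMono, F10 in ncMono and Vcan in cMono. At D14, 564 of 651 ncMono have no Serpinb2 UMI, and 63 of 103 cMono have 5 or more Vcan UMIs.

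Neutrophils carried little Serpinb2, and the order of the libraries in the pooled class was the opposite of that in ncMono. The level was 3.55 CPM in naive (2.07 to 5.69), 6.90 CPM at D11 (4.97 to 9.33) and 15.9 CPM at D14 (12.9 to 19.5), from 9 of 1321, 30 of 1600 and 81 of 1283 cells. The D14 value was 4.49-fold the naive value (2.66 to 8.03), a log2 ratio of 2.17 that ranged from 2.07 to 3.17 over the alternatives, the highest with the stricter gate. Its D14 interval lay below that of cMono and overlapped that of ncMono in the same library.

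Plaur, the urokinase receptor, had its highest level in neutrophils of every library, and there each later library was higher. It was 626 CPM in naive (603 to 648), 846 CPM at D11 (823 to 869) and 1118 CPM at D14 (1091 to 1145), and no pair of intervals overlapped. The D14 level was 1.79-fold the naive level (1.71 to 1.87), short of the 2-fold used for calls. Neutrophils held 70.1%, 70.8% and 67.4% of all Plaur UMIs of the 3 libraries. The share of neutrophils with a Plaur UMI was 60.2%, 68.3% and 79.9%, and 35.4%, 44.6% and 58.4% at equal depth. T cells, for comparison, held 8.73, 5.99 and 5.36 CPM, with a UMI in 4.67%, 2.61% and 3.64% of cells. Median depth was 3444, 3267 and 3760 UMIs in neutrophils, below that of T cells.

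Plaur was not higher in monocytes of the leukemic libraries. In ncMono it was 305 CPM in naive (274 to 339), 259 CPM at D11 (237 to 283) and 259 CPM at D14 (247 to 272). In cMono it was 219 CPM (197 to 243), 229 CPM (212 to 247) and 183 CPM (167 to 201). The log2 ratios of D14 to naive were -0.23 in ncMono and -0.26 in cMono, with intervals below 0 in both. In cMono, leaving out cells with precursor or dividing-cell transcripts gave 0.01. Among the lymphoid classes, B cells held 40.1 CPM in naive and 67.1 CPM at D11, above T cells in both libraries. Receptor and inhibitor were both higher in ncMono than in cMono of naive blood, at 1.39-fold for Plaur and 1.83-fold for Serpinb2. At D14 they differed, and ncMono carried Plaur at 1.41-fold the cMono level (1.27 to 1.57) and Serpinb2 below it.

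**Figure D3:**
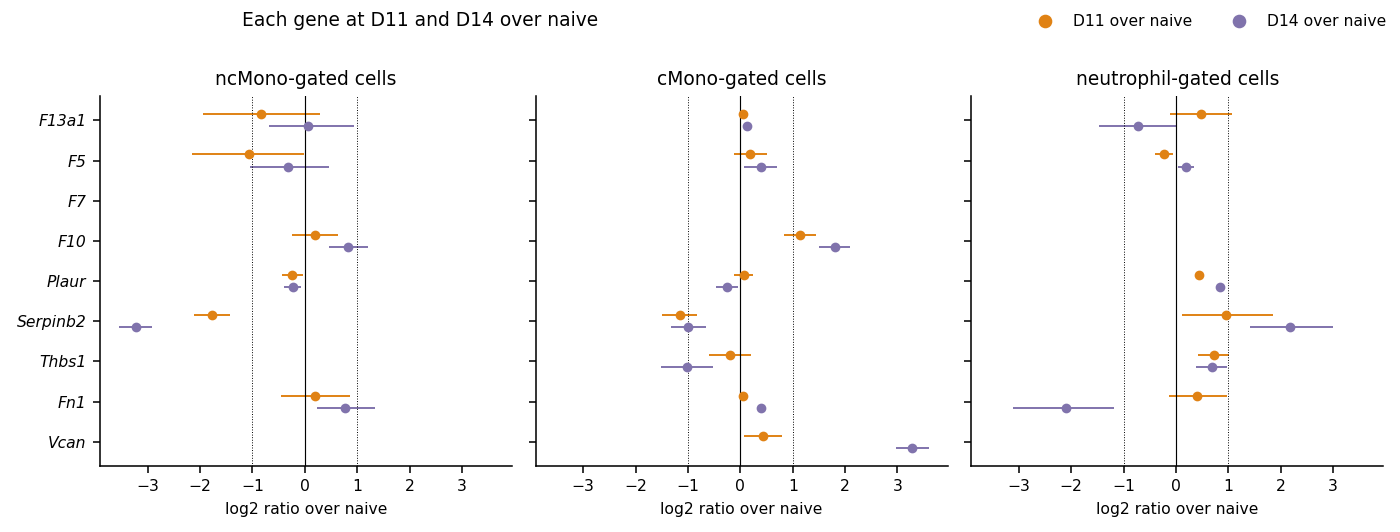
Log2 ratio of the level at D11 and D14 to naive for each gene in ncMono, cMono and neutrophils, with 95% intervals for counting error and dotted lines at 2-fold. Genes with a mean under 5 CPM or with no UMI in a sum are left out, which leaves F7 empty. In ncMono, Serpinb2 at -3.23 is the gene beyond the lower line at D14, and in cMono Vcan at 3.28 and F10 at 1.80 lie beyond the upper line.

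Neutrophils were mixed, and their makeup differed between the libraries. The neutrophil markers summed to 12642, 17303 and 26723 CPM, and the precursor and dividing-cell transcripts to 14.0, 14.0 and 35.3 CPM, and their part in the neutrophil values was not tested beyond the clusters given here. In clusters built without the members and named by their leading genes against all other cells, the cluster led by Camp, Ltf, Ngp and Ly6g, genes of specific granules and maturing neutrophils, held 12.9% of neutrophils at D11 and 42.6% at D14 and under 50 cells in naive. The cluster led by Csf1, which encodes a macrophage growth factor, held 62.2%, 36.4% and 6.47%. Within that Csf1 cluster, Plaur was 642, 662 and 654 CPM in naive, D11 and D14. Within the cluster led by Stfa2l1 and Cxcr2 it was 759, 972 and 1180.1 CPM, and in the interferon-response cluster led by Ifit3b and Isg15 it was 454, 752 and 1023 CPM. The lead of Ifit3b and Isg15 was read over all libraries together. Against other neutrophil-gated cells of D14, the 62 D14 neutrophils of that cluster were led by Gbp5, Cd274 and Ifi47. Whether the cells of a cluster were alike across libraries was not tested. By these values, Plaur was higher at D14 inside 2 of the 3 clusters found in every library and did not separate by library in the Csf1 cluster. The Camp cluster held 1020.1 CPM at D11 and 1169 CPM at D14. A cluster of low UMI counts (cluster 8), with 5.88% and 21.4% of neutrophils, held 807 and 1242 CPM. Serpinb2 in neutrophils lay mainly in the Camp cluster, with 27 of 42 UMIs at D11 and 84 of 94 at D14. Its level there was 19.6 CPM at D11 (12.9 to 28.5) and 22.7 CPM at D14 (18.1 to 28.1), which overlapped. Cluster 8 held 6 Serpinb2 UMIs at D14 (18.9 CPM, 6.92 to 41.1), not separable from the Camp cluster. Levels in naive, D11 and D14 were 1.04, 0 and 0 CPM in the Csf1 cluster. They were 0, 0.525 and 3.31 CPM in the Stfa2l1 and Cxcr2 cluster and 1.39, 0 and 0 CPM in the interferon-response cluster. With at most 4 UMIs in any of these sums, the libraries could not be separated within them. In naive these clusters held 3, 0 and 1 of the 17 Serpinb2 UMIs of neutrophils, so most naive UMIs lay outside them.

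**Figure D4:**
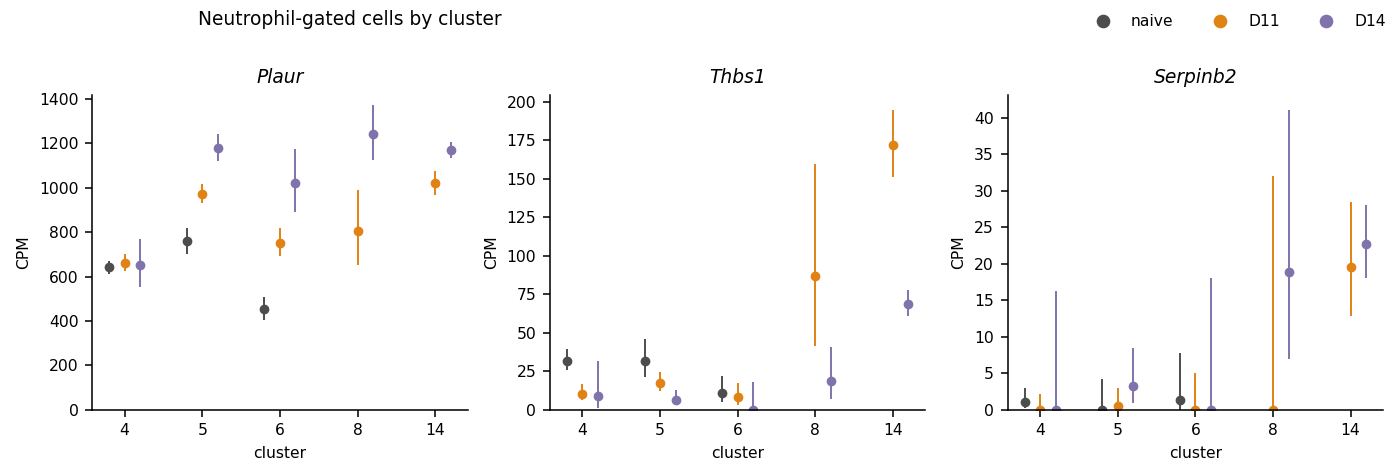
Plaur, Thbs1 and Serpinb2 (CPM) in neutrophil-gated cells by cluster and library, for clusters with at least 50 such cells, with 95% Poisson intervals. Cluster 4 is led by Csf1, 5 by Stfa2l1 and Cxcr2, 6 by Ifit3b and Isg15 and 14 by Camp and Ltf, and 8 has low UMI counts. Plaur lies between 642 and 662 CPM in cluster 4, and Thbs1 reaches 172 CPM at D11 in cluster 14.

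Among the clotting factors, F13a1, the transglutaminase subunit, lay mostly in cMono. Its cMono level was 1643 CPM in naive (1582 to 1705), 1708 CPM at D11 (1660.2 to 1756) and 1798 CPM at D14 (1744 to 1852). These values differed by at most 1.09-fold (D14 to naive, 1.04 to 1.15), and a UMI was found in 124 of 131, 208 of 212 and 102 of 103 cMono. Without cells that had precursor or dividing-cell transcripts, the log2 ratio of D14 to naive was -0.44 in place of 0.13. Its sign was therefore not stable, though that alternative left 38 cMono at D14. The cMono gate held 80.5%, 87.2% and 84.9% of all F13a1 UMIs. In ncMono the level was 13.9, 7.85 and 14.6 CPM, and at D14, 84 of the 101 UMIs came from 2 cells. The ncMono level was 123-fold below cMono at D14 (101 to 151), a log2 ratio of -6.94 that ranged from -8.16 with the mean of single-cell CPM to -6.18 with cells of both marker sets assigned.

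F10, the serine protease at the junction of the cascade, differed more between libraries in cMono than F13a1 or F5 did. It was 68.8 CPM in naive (56.9 to 82.6), 152 CPM at D11 (138 to 167) and 239 CPM at D14 (220.2 to 259.8). The intervals were separate at every step, with 2.21-fold at D11 (1.79 to 2.73) and 3.48-fold at D14 (2.84 to 4.28) over naive. A F10 UMI was seen in 48.1%, 65.6% and 93.2% of cMono, and in 6.18%, 12.9% and 21.3% at equal depth. In ncMono F10 was 60.0 CPM (46.7 to 75.9), 68.5 CPM (57.3 to 81.3) and 106 CPM (98.1 to 114). Only the D14 value lay above the naive interval there, at 1.76-fold (1.38 to 2.29). Naive ncMono and cMono could not be separated by F10 (log2 -0.20, -0.65 to 0.24), whereas ncMono lay 2.27-fold below cMono at D14 (2.03 to 2.53). Outside monocytes F10 was low, with 1.24 to 4.75 CPM in red cells, 1.88 to 2.37 CPM in neutrophils, no UMI in B cells and at most 1.07 CPM in T cells. B cells gave 0 of 399 cells in naive and 0 of 257 at D11, which by the floor of 3 counts allows shares of cells with a UMI of up to 0.752% and 1.17%.

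F7, the neighbour of F10, was hardly read. The 3 libraries held 1, 9 and 10 F7 UMIs in all, of which cMono held 1, 5 and 6. At so few UMIs no fold is given for F7.

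F5, the cofactor, was shared by neutrophils and cMono. In neutrophils it was 119 CPM in naive (109 to 129), 102 CPM at D11 (94.0 to 110.2) and 136 CPM at D14 (127 to 146). In cMono it was 78.3 CPM (65.5 to 92.9), 89.1 CPM (78.5 to 101) and 102 CPM (90.0 to 116). At D11 the intervals of the 2 classes overlapped, and in the other libraries neutrophils were higher. The D14 to naive log2 ratio was 0.19 in neutrophils and 0.39 in cMono, both under 2-fold. Within neutrophils, F5 was 121, 93.6 and 114 CPM in the Csf1 cluster and 138, 96.7 and 112 CPM in the Stfa2l1 and Cxcr2 cluster. The interferon-response cluster held 90.5, 76.0 and 132 CPM. In each of these clusters the naive and D14 intervals overlapped. The Camp cluster held 129 CPM at D11 and 154 CPM at D14. In ncMono F5 was 16.5, 7.85 and 13.2 CPM on 19, 15 and 91 UMIs, 7.76-fold below cMono at D14 (6.08 to 9.98).

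Vcan, the large chondroitin sulfate proteoglycan, showed the largest difference of any member in cMono. It was 54.6 CPM in naive (44.0 to 67.0), 73.4 CPM at D11 (63.8 to 84.0) and 529 CPM at D14 (501 to 559). D14 was 9.70-fold above naive (7.84 to 12.1) and 7.22-fold above D11 (6.23 to 8.39), so nearly all of the difference lay between the leukemic time points. The share of cMono with a UMI was 18.3%, 23.6% and 89.3%, and 3.86%, 4.81% and 34.8% at equal depth. In naive, 33 of the 92 UMIs came from 2 cells. At D14 the median cell carried 8 UMIs, and 63 of 103 cells carried 5 or more. At D14 the level was high in cells with and without a UMI of the 6 listed precursor and dividing-cell genes, among which Prtn3 was not counted. It was 512 CPM in 65 cMono that had such a UMI and 572 CPM in 38 that did not, against 31.8 and 60.5 CPM in naive. At D11 the same split gave 132 CPM with and 43.6 CPM without.

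Vcan was also found outside cMono, at far lower levels. In ncMono it had 0, 5 and 58 UMIs, or 0, 2.62 and 8.41 CPM, and the D14 level was at least 3.22-fold that of naive with naive set at its floor of 3 UMIs, and the exact interval of the ratio began at 2.54-fold. Its ncMono level at D14 was 63.0-fold below cMono (48.4 to 83.4), a log2 ratio of -5.98 that ranged from -6.43 with the stricter gate to -4.81 with cells of both marker sets assigned. Pro-B-gated cells, of which there were 4, 107 and 765, carried no Vcan UMI in naive, 2.20 CPM at D11 and 2.15 CPM at D14, and T cells carried no Vcan UMI in any library.

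Fn1, fibronectin, followed F13a1 in its class and was modestly higher at D14. In cMono it was 1332 CPM in naive (1277 to 1388), 1375 CPM at D11 (1332 to 1419) and 1746 CPM at D14 (1693 to 1799). D14 was 1.31-fold above naive (1.24 to 1.38), and 1.27-fold above D11 (1.22 to 1.33). The D14 to naive log2 ratio was 0.39, and 0.23 without cells that had precursor or dividing-cell transcripts. A UMI was present in 123 of 131, 206 of 212 and 102 of 103 cMono. In ncMono the level was 26.9, 30.9 and 45.8 CPM, a D14 to naive log2 ratio of 0.77 (0.23 to 1.35). That ratio leaned on few cells, since 17 of 31 naive UMIs and 75 of 316 UMIs at D14 came from 2 cells each, and it was 0.02 when cells with both marker sets were assigned to the class with more of its markers. In neutrophils the level was 9.40, 12.5 and 2.20 CPM, and in naive 35 of the 45 UMIs came from 2 cells.

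Thbs1, thrombospondin 1, an adhesive glycoprotein of platelet granules that macrophages also make, was lower in cMono at D14. It was 51.6 CPM in naive (41.4 to 63.7), 45.1 CPM at D11 (37.6 to 53.5) and 25.5 CPM at D14 (19.5 to 32.7), which is 2.03-fold below naive at D14 (1.44 to 2.86). In ncMono it was at 1.05 CPM or below in every library, on 1, 2 and 7 UMIs. The platelet markers stood at 36.8, 8.03 and 43.5 CPM in cMono. With cells that had any Pf4, Ppbp or Gp9 UMI left out, the Thbs1 log2 ratio was -0.92 in place of -1.02. Platelet barcodes themselves, 6, 1 and 16 of them, held 27, 5 and 60 Thbs1 UMIs.

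In neutrophils the pooled Thbs1 level was higher in both leukemic libraries, at 30.7 CPM in naive (26.0 to 36.1), 50.6 CPM at D11 (45.1 to 56.6) and 49.4 CPM at D14 (43.8 to 55.4). The D14 to naive log2 ratio of 0.68 (0.39 to 0.98) ranged from 0.19, with the mean of single-cell CPM, to 0.85 over the alternatives. At D11 the mean of single-cell CPM gave 0.26 in place of 0.72. Both of these lower values lay outside their counting intervals. Within clusters the order was different. The Csf1 cluster held 32.0, 10.5 and 8.78 CPM, the Stfa2l1 and Cxcr2 cluster 32.0, 17.3 and 6.63 CPM, and the interferon-response cluster 11.1, 8.15 and 0 CPM. The Camp cluster held 172 CPM at D11 and 69.0 CPM at D14. Naive was above D14 beyond the intervals in the Stfa2l1 and Cxcr2 cluster and above D11 in the Csf1 cluster, where D14 had 2 UMIs. The interferon-response cluster, with 8, 6 and 0 UMIs, could not be separated by library. The pooled difference was thus not seen within the clusters found in all libraries.

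**Figure D5:**
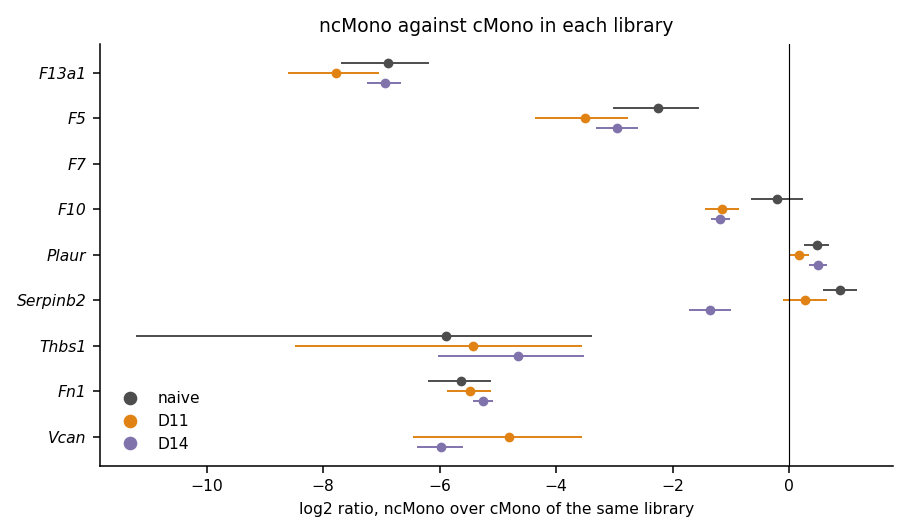
Log2 ratio of the ncMono level to the cMono level for each gene in each library, with 95% intervals for counting error. F7 and the naive value of Vcan, where ncMono had no UMI, are not drawn. Serpinb2 crosses 0, from 0.87 in naive to -1.36 at D14, while Plaur stays above 0.

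Calls were then counted over the members in each class. A call was a level at least 2-fold higher or lower, among features with a mean of at least 20 CPM over the sums compared. In ncMono, 4 members passed that minimum at D14 against naive, of which 1 (Serpinb2) was lower and 0 were higher, where 2.60% of the 6163 features were lower and 3.02% were higher. Because the choice of members used this contrast, nothing is read from the count. In cMono 8 members passed, with F10 and Vcan higher (5.30% of 6183 features were) and Thbs1 lower (4.12% were). Serpinb2, at 1.99-fold lower, lay just short of the limit, and Thbs1, at 2.03-fold, just past it. In neutrophils 3 passed and none was called, against 7.36% of 4593 features higher and 9.25% lower. The median log2 ratio of the members that passed was 0.27 in ncMono, 0.26 in cMono and 0.68 in neutrophils, beside 0.03, 0.03 and -0.22 over all features tested. Between classes at D14, 7 members passed and 6 were lower in ncMono than in cMono, where 10.2% of 6335 features were lower and 11.3% higher. The median for these members was -2.96, beside 0.10 over all features. The exception was Plaur. Serpinb2 counted here through the D14 ncMono level that belonged to the choice. The paper lists F13a1 and Fn1 among the genes that define cMono in these libraries, so nothing is read from this count either.

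Low counts of the cMono genes were present in other gates. Red-cell-gated barcodes held F13a1 at 33.3, 16.5 and 12.6 CPM and Fn1 at 52.3, 16.7 and 13.5 CPM, and T cells held F13a1 at up to 5.40 CPM. The part of free RNA and of doublets in these low values was not tested.

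Cells that showed both monocyte marker sets, left out of both gates, numbered 26, 45 and 44. They held Serpinb2 at 252, 93.2 and 101 CPM and F10 at 85.3, 186 and 274 CPM. With under 50 such cells in each library, their libraries were not compared, and the part of doublets was not tested. Vcan was 0 CPM in naive, 38.6 CPM at D11 and 370.3 CPM at D14 in the same cells, and Fn1 was 635, 549.6 and 921 CPM. Co-detection in cMono moved with depth and level: all 4 of F13a1, Fn1, Vcan and F10 had a UMI in 16 of 131 cells in naive, 41 of 212 at D11 and 87 of 103 at D14.

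The genes whose levels over the 22 class and library sums were most like those of the members were also listed, by Pearson's r of log values over 4499 genes. These sums share libraries and depth, so r is a description. F13a1 and Fn1 were most like each other (r = 0.972). Thbs1 was most like F5 (r = 0.919), and F5 itself was most like Gm14548 (0.975). Vcan was most like Elane and Prtn3 (both 0.947), proteases of neutrophil and monocyte precursors. Serpinb2 followed Gm21188 (0.958), Apoc2 (0.945) and Ifitm3 (0.941), Plaur followed Rbm47 (0.983), and F10 followed Nupr1 (0.964).

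The rest of the same pathways was read from lists that include the members, over features with a mean of at least 20 CPM over the 3 sums of a class. Genes are named for the highest levels in their list, and called genes were named after their values were seen. In ncMono at D14 against naive, 3.01% of the 6149 features tested were at least 2-fold higher and 2.65% lower. Of 18 clotting factors 3 passed, with a median log2 ratio of 0.09 (0.03 over all features) and 1 lower. That gene was Vwf, the platelet-binding multimer known from the vessel wall and platelets, at 64.3, 49.2 and 29.4 CPM. Of 13 fibrinolysis genes 6 passed (median -0.39), and Serpinb2 was the single call. Lrp1, the endocytic receptor that clears complexes of proteases and serpins, was 424 CPM in naive and 291 CPM at D14, and Anxa2, a surface receptor for plasminogen and its activator, was 272 and 161 CPM. Of 17 receptors for clotting and matrix proteins 13 passed (median 0.06), with Itgb3 higher and Cd36 lower. Itgb3, the beta chain of the vitronectin receptor, was 41.9 CPM at D11 and 109 CPM at D14, with a log2 ratio of D14 to naive of 2.45. Cd36, a thrombospondin and lipid receptor, was 913, 478 and 433 CPM. Itga4, part of a fibronectin receptor, had the highest level of the receptor list at 1691, 1571 and 2196 CPM and was not called. Of 11 anticoagulants 3 passed (median -0.28) and of 24 matrix genes 7 passed (median 0.17), with no call in either list. Of 7 clade B serpins 2 passed, with Serpinb6a higher (86.9 CPM in naive, 183 CPM at D14) and Serpinb2 lower.

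In cMono, 4.97% of 6155 features were higher and 4.18% lower, and the calls of these lists outside the members were Plgrkt and Serpinb1a. Among fibrinolysis genes 6 of 13 passed (median 0.15, beside 0.03 over all features), and Plgrkt, a plasminogen receptor of the cell surface, was higher at 27.3, 42.6 and 60.2 CPM. S100a10, the partner of Anxa2 in plasminogen binding, had the highest level of that list at 565, 705 and 1019 CPM and was not called. Of 7 clade B serpins 2 passed, and Serpinb1a, an inhibitor of neutrophil proteases, was higher at 14.2, 30.4 and 63.9 CPM. Of 17 receptors 11 passed (median -0.23) and of 11 anticoagulants 2 passed (median 0.30), with no call. F10 was the single call of 4 clotting factors that passed (median 0.39), and Vcan and Thbs1 were the calls among 11 matrix genes that passed (median 0.39).

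In neutrophils, 7.01% of 4553 features were higher and 9.16% lower, and the matrix list held more calls than any of the other 5 lists. Of its 24 genes 12 passed (median 0.76, beside -0.22 over all features), with 5 higher at D14 and none lower. Mmp8, a collagenase of specific granules, was 373, 931 and 2756 CPM, and Mmp9, a gelatinase, was 568, 1017 and 1312 CPM. Both are also among the markers of the neutrophil gate. Mmp25 was 79.8, 199.5 and 318 CPM, Lgals3 was 287, 553 and 643 CPM, and Adam8 was 188, 242 and 377 CPM. None of the 3 fibrinolysis genes that passed was called (median 0.03), Plaur included, nor were the 2 clotting factors (median 0.11). Anxa5, which covers procoagulant phospholipid and was the single anticoagulant that passed, was higher at 11.5, 20.1 and 35.1 CPM. Of the receptors 10 passed (median -0.21), with Tlr2 higher and Itga4 lower, the latter at 1156, 875 and 545 CPM. Serpinb1a was higher at 18.2, 88.1 and 252 CPM, and Serpinb6a was lower at 57.7, 41.4 and 27.8 CPM. At D14 Serpinb1a was 379 CPM in the Camp cluster and 39.5 CPM in the other neutrophil-gated cells. Mmp8 is among the leading genes of that cluster. Outside the members, these genes were not compared between libraries within clusters. The part of neutrophil makeup in their pooled values was not tested.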

How the data were processed

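PB scRNA-Seq was measured in 3 libraries (naive, D11, D14), 1 per group by their labels. The authors deposited filtered UMI counts per gene and cell. The file headers name Cell Ranger 5.0.1, the submitters' processing notes Cell Ranger 7.1.0 and mm10. Whether intronic reads were counted is not given in the sources used here. Antisense genes overlap F13a1, F5, Thbs1, Fn1 and Vcan. On the same strand, Serpinb10 overlaps Serpinb2 and the pseudogene Gm16588 overlaps F5, and neither is among the counted features. Their part in the counts of Serpinb2 and F5 was not tested.

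Barcodes under 200 detected genes or over 10% mitochondrial UMIs were dropped. A cell took the class with most markers detected, with at least 3 and a lead of 2, after cells with at least 20% hemoglobin UMIs were set aside as red cells. Of kept cells, 3.26% to 3.70% were ambiguous and 1.89% to 2.36% ungated. No doublets were removed in the main analysis. UMIs were summed per class and library and scaled to CPM. Exact Poisson intervals were used for levels, exact conditional binomial intervals for ratios and Clopper-Pearson intervals for shares, at 95%. A sum or share at 0 was set at 3 counts for a bound. Gated classes under 50 cells were not compared in the main analysis. Splits of a gated class by markers or transcripts, and the alternatives, could hold fewer cells than that. Members and gene lists were chosen with earlier results of these data known. All 9 members were named, and list genes by the highest levels in a class, with called genes added. Alternatives changed the filters, gates, scaling (edgeR 4.0.16), doublets (Scrublet) and clusters (scanpy 1.11.5), and code was tested on simulated data. Python 3.11.15 and R 4.3.3 were used.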

Additional observations from a re-analysis of the deposited data

Results flagged for a closer look

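For 4 members the D14 to naive log2 ratios had opposite signs in monocytes and neutrophils with counting intervals that did not reach 0. With 1 library per condition the differences between classes were not tested. Plaur was -0.23 in ncMono and -0.26 in cMono but 0.84 in neutrophils. In cMono it was 0.01 without cells that had precursor or dividing-cell transcripts. Serpinb2 was -3.23 in ncMono and -0.99 in cMono but 2.17 in neutrophils, where it had 17 UMIs in naive and 94 at D14. In cMono Serpinb2 was -0.30 without cells that had precursor or dividing-cell transcripts, outside its interval. Within the neutrophil clusters found in every library, Serpinb2 could not be separated by library. Fn1 was 0.77 in ncMono and 0.39 in cMono but -2.09 in neutrophils, on 45 naive UMIs of which 35 lay in 2 cells. Over the alternatives Fn1 ranged from -2.22 to 0.56 in neutrophils, so its sign there was not stable, and from 0.02 to 1.05 in ncMono. Thbs1 was -1.02 in cMono but 0.68 in neutrophils, a sign that did not hold inside the neutrophil cluster led by Stfa2l1 and Cxcr2. Over the alternatives Thbs1 in neutrophils ranged from 0.19 to 0.85.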

How the results depend on the processing

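No paired analysis was possible because each group was 1 library. For single members 831 values were recomputed under 12 alternatives, of which 3 were added after the data were seen. A lower CPM minimum was tried for the counts of members alone. Of the 831 values, 759 stayed inside the counting interval of the main analysis and 72 fell outside. That interval is wide at few UMIs: Thbs1 at D11 in ncMono ranged from -3.11 to 3.27 and never fell outside. Some alternatives also changed few or no cells of a class. No called value changed sign, but values short of a call did, as Fn1 at D11 in ncMono did in 5 alternatives. Serpinb2 in ncMono at D14 ranged from -3.31 to -2.85 (log2 to naive), and the last value, from Leiden clusters in place of gates, lay outside its interval. F10 in cMono ranged from 1.72 to 1.97 and Vcan from 3.10 to 3.54, while Plaur in neutrophils came to the 2-fold limit with TMM factors. The number of members lower in cMono at D14 was 1 (Thbs1), 2 with all barcodes and with TMM factors (Serpinb2 as well), and 0 with the stricter gate, with CPM without ribosomal protein, mitochondrial and hemoglobin genes, and with the mean of single-cell CPM. With cells that had platelet UMIs left out it was 1, Serpinb2 in place of Thbs1. Both genes lay close to 2-fold in every one of these settings. The number higher in ncMono was 0, and 1 (Fn1) with Leiden clusters and after removal of Scrublet's highest-scoring cells. The causes were not tested. Fn1 and F13a1 in neutrophils, at few UMIs, ranged from -2.22 to 0.56 and from -1.26 to 2.76. The lack of replicate libraries limits every comparison between time points, and the counts limit F7, Thbs1 in ncMono and Vcan outside cMono.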
